A study of Mus musculus with 4 samples.

Results

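Keratins are the intermediate filament proteins of epithelial cells. The 10 keratin genes described here were taken from a list by symbol: 4 basal keratins (Krt5, Krt14, Krt15 and Krt17), 3 stress keratins (Krt6a, Krt6b and Krt16) and 3 luminal keratins (Krt8, Krt18 and Krt19). All 10 were found among the 17630 genes listed in each library, which hold 33 other keratin genes. The study asked how sympathetic nerves act on mammary basal cells and their stem cells. RNA-seq was made from 4 groups of wild-type (WT) mouse mammary basal cells on a C57BL/6 background, with 1 library per group. The sorted control library came from freshly isolated basal cells of control mice. In other experiments the paper describes such controls as saline-treated. The sorted 6-OHDA library came from basal cells of mice injected with 6-hydroxydopamine, a neurotoxin that destroys sympathetic nerve endings, from before puberty on. Both were gated as lineage-negative, CD24-positive cells with high CD29. The colony control and colony SP libraries came from basal cells grown as colonies in Matrigel, a basement membrane gel, with EGF and insulin, without or with SP. SP stands for salbutamol, an agonist of the beta-2 adrenergic receptor, plus phenylephrine, an agonist of the alpha-1 adrenergic receptor. The title of the colony SP sample carries the number 200 without a unit. The sources used here give neither the number of mice pooled in a library nor their age at sorting.

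Each keratin filament is built from pairs of a type I and a type II chain, so the genes work in partnerships. Krt14 (type I) and Krt5 (type II) form the filament network of the basal layer of stratified and mammary epithelium, where Krt15 and Krt17 are further type I chains. Krt8 (type II) with Krt18 and Krt19 (type I) are the keratins of simple epithelia and mark luminal cells of the mammary duct. Krt6a and Krt6b (type II) and Krt16 (type I) are made in epidermis after wounding and in other states of stress or rapid growth, and are known as stress keratins.

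Values were deposited as FPKM, fragments per kilobase of transcript scaled to the sequencing depth, a scale on which levels of different genes in a library can be set side by side. Between libraries the values depend on how each library is scaled. They summed to 508071 in the sorted control, 517504 in the sorted 6-OHDA, 577631 in the colony control and 588202 in the colony SP library. Differences between libraries were taken on log2(FPKM + 1), and a gene was counted as higher or lower when its difference was over 0.3 in size and its mean over both libraries was at least 1 FPKM. With 1 library per group there is no spread between replicates, so no test was made and every difference is one between a pair of libraries. The 6-OHDA comparison and the comparison of the control colonies with control sorted cells share the sorted control library, and the latter shares the colony control library with the SP comparison.

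The labels were checked against cell type markers. Of 16 basal and myoepithelial markers, 0 were under 1 FPKM in any library, and they summed to 5927 FPKM in the sorted control, 6611 in the sorted 6-OHDA, 2736 in the colony control and 2962 in the colony SP library. Acta2, smooth muscle actin, led this list in the sorted control with 1949 FPKM, and Trp63, the transcription factor p63 of basal epithelia, was listed at 42.8, 52.6, 46.5 and 80.9 FPKM in the same order of libraries. The basal label therefore had its defining genes in each library. The 25 luminal markers summed to 1060, 1016, 3113 and 2849 FPKM in that order. Elf5, a transcription factor of luminal progenitors, was listed at 0.63 and 1.02 FPKM in the sorted libraries and at 22.5 and 18.1 FPKM in the colonies, whereas Csn3, a milk casein, was listed at 38.4 and 103.6 FPKM in the sorted libraries and at 6.41 and 19.0 FPKM in the colonies. The sum of the luminal markers was thus higher in the colonies, led by Ly6d there, while single markers went both ways. In the colony control it was above the sum of the basal markers. From staining of Krt14 and Krt8, the paper reports that basal cell colonies held both basal and luminal cells. It found no significant change of these proportions under SP.

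Other cell types also left transcripts. The 10 endothelial markers, led by Pecam1 (CD31) in both sorted libraries, summed to 362 FPKM in the sorted control and 358 in the sorted 6-OHDA library, although CD31 was among the antigens used to remove cells, and to 14.0 and 6.85 FPKM in the colony control and colony SP libraries. The 12 fibroblast markers summed to 207, 407, 47.4 and 28.6 FPKM in that order, led by Dcn in both sorted libraries. The 7 adipocyte markers summed to 212, 377, 38.3 and 1.13 FPKM, nearly all of it Fabp4, which endothelial cells also express. The 15 leukocyte markers stayed at sums of 17.4, 15.9, 3.66 and 4.84 FPKM, with Ptprc (CD45) listed at 0 in both colony libraries. Salivary gland secretory genes, a list drawn from an earlier look at these data, summed to 1.87 FPKM over 14 genes in the sorted control and to 15863 in the sorted 6-OHDA library, where Bpifa2 at 7277 FPKM was the most abundant of all genes, and to 1.49 and 1.24 FPKM in the colony libraries. Of 15 markers of skin and hair keratinocytes, 11 were listed, and they summed to 3.59, 8.91, 7.37 and 12.4 FPKM, led by Krt10 in each library, while the hair keratins Krt25 and Krt31 were at 0 in both colony libraries. The part of these other transcripts in the keratin differences given next was not tested.

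**Figure D1:**
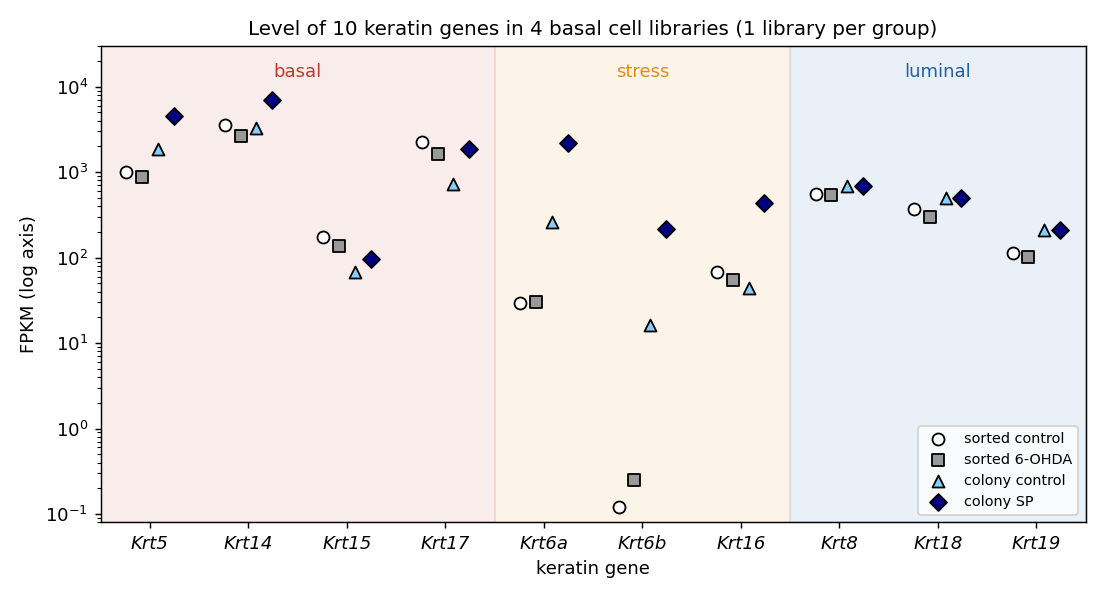
FPKM of the 10 keratin genes (log axis) in the 4 libraries, 1 point per library, grouped by role. The colony SP points of Krt6a (2198), Krt6b (214) and Krt16 (434) lie far above their other points, whereas the points of Krt8 lie between 545 and 698.

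In freshly sorted control cells the basal keratins led. Krt14 had 3595 FPKM and was number 4 of all genes in that library. Krt17 followed with 2266 FPKM and Krt5 with 1002 FPKM, and Krt15 had 175 FPKM. The luminal keratins were present in the same library, with 559.9 FPKM for Krt8, 375 for Krt18 and 112 for Krt19, so their summed level was 14.9% of that of the basal keratins. Stress keratins were low beside the basal keratins. Krt16 had 67.2 FPKM (number 1180 of all genes), Krt6a 29.2 (number 2766) and Krt6b 0.12. A rough estimate of depth, made from the spacing of low values among genes with 1 annotated transcript, puts the value of Krt6b at about 4 fragments, so its level in sorted cells is close to the limit of the sequencing. In bulk RNA, fewer cells of a type and less RNA per cell cannot be told apart, which holds for each level and difference given here.

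The 6-OHDA comparison asked what changes in basal cells after loss of sympathetic nerves. None of the 9 keratins compared was counted as higher, where 15.8% of 11749 genes were, and 4 were counted as lower (Krt14, Krt15, Krt17 and Krt18), where 8.35% of genes were. Past a difference of 1, there were 0 keratins higher, where 1.05% of genes were, and 0 lower, where 0.902% were. Krt14 had 3595 FPKM in the control and 2633 in the 6-OHDA library, and fell by 0.45 on the log2 scale. Krt17 went from 2266 to 1643 FPKM and fell by 0.46. Krt15, in skin a marker of hair follicle stem cells, went from 175 to 137 FPKM and fell by 0.35. These are modest differences, with 6-OHDA levels between 0.725 and 0.784 times the control level. Krt5, the partner of Krt14, had 1002 and 869 FPKM, a difference of -0.20 that did not reach the threshold. The median over the 4 basal keratins was -0.40, beside 0.06 over all genes compared, and after scaling by the median ratio or by quantiles it was -0.46 or -0.34.

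Among luminal keratins in the sorted cells, Krt18 went from 375 to 295 FPKM and fell by 0.34. Its partner Krt8 was listed at 559.9 and 545 FPKM, a difference of -0.04, so the members of this pair differed in size of change and the ratio of Krt18 to Krt8 was 0.669 in the control and 0.542 in the 6-OHDA library. Krt19 had 112 and 101 FPKM, a difference of -0.15. The median of the luminal keratins was -0.15. Of 23 luminal markers past the filter, 4 were higher and 9 were lower with 6-OHDA, where 15.8% and 8.35% of all genes were. Of the 16 basal and myoepithelial markers, 1 was higher and 0 were lower, whereas 3 of the 4 basal keratins were lower. Stress keratins had no member past the threshold: Krt6a was listed at 29.2 and 29.9 FPKM (0.03). Krt16 was listed at 67.2 and 55.1 FPKM, a difference of -0.28 that passed the threshold in 4 of the scalings tried, at up to -0.34. Krt6b, at 0.12 and 0.25 FPKM, did not pass the filter on low values and gets no fold change.

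The salivary genes took 15863 of the 517504 FPKM of the 6-OHDA library. With values rescaled to the same sum without these genes, the differences were -0.43 for Krt14, -0.44 for Krt17, -0.33 for Krt15 and -0.32 for Krt18, and the same 4 genes passed the threshold. Of the 12 fibroblast markers, 7 were higher and 1 was lower with 6-OHDA, where 15.8% and 8.35% of all genes were, with a median of 0.46 beside 0.06 over all genes. Col3a1, a fibrillar collagen, had 18.3 FPKM in the control and 91.7 in the 6-OHDA library, and Clec3b had 5.34 and 3.73 FPKM. Of the genes past 0.3, 65.4% were higher as deposited, against 50.5% after scaling by the median ratio and 47.4% after quantile normalization.

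**Figure D2:**
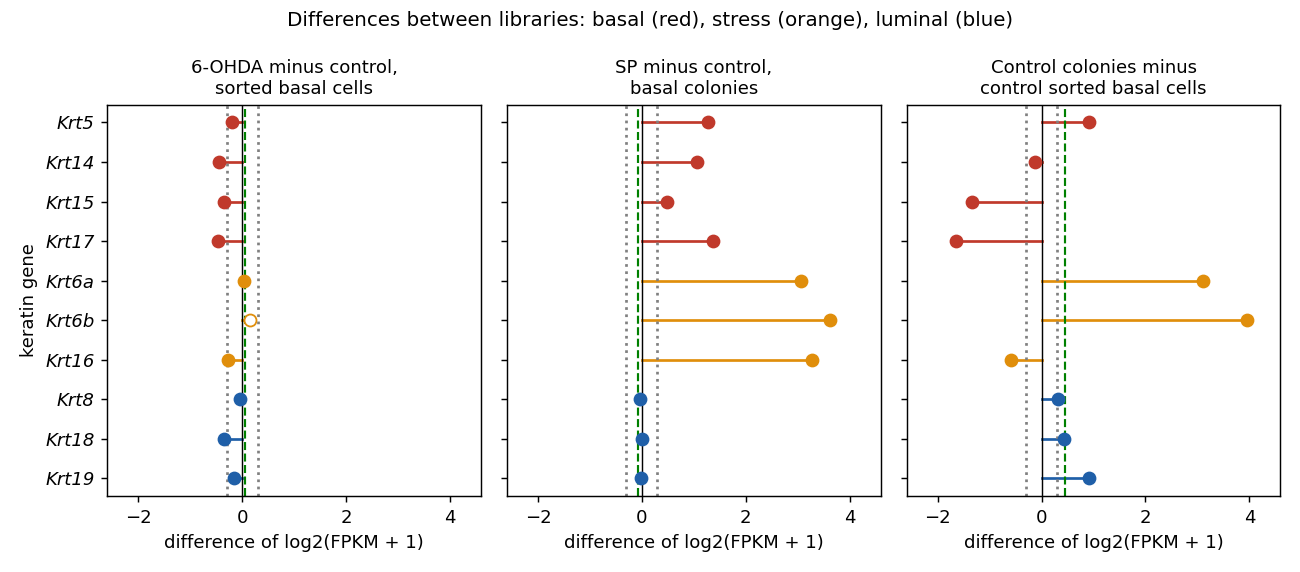
Difference of log2(FPKM + 1) for each keratin in the 3 comparisons, 1 point per gene; dotted lines mark 0.3 in either direction, the dashed line is the median of all genes compared (0.06, -0.07 and 0.45), and the open point (Krt6b) did not pass the filter. In the middle panel the stress keratins lie between 3.07 and 3.62, and the luminal keratins lie between -0.03 and 0.00.

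The SP comparison asked what adrenergic agonists change in basal colonies. In it, 7 of the 10 keratins were counted as higher, where 11.7% of 11849 genes were, and 0 as lower, where 19.8% of genes were. Past a difference of 1, there were 6 of 10 keratins higher, where 2.0% of genes were, and 0 lower, where 1.33% were. The members that rose were all of the basal and stress keratins, and the luminal keratins had nearly equal values in the colony libraries. Of all genes past 0.3, 37.1% were higher as deposited and 49.8% after scaling by the median ratio, while the count of keratins was 7 under each of the 9 other scalings, pseudocounts and filters.

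Stress keratins had the largest differences among the 10. Krt6a was listed at 260.25 FPKM in the colony control and 2198 in the colony SP library, 8.45 times as much (3.07 on the log2 scale). Krt16, its type I partner, had 44.1 and 434 FPKM, 9.84 times as much (3.27). Krt6b had 16.5 and 214 FPKM, 13.0 times as much (3.62). All 3 rose by factors between 8.45 and 13.0 from very different starting levels, and the median difference of 3.27 stood beside -0.07 over all genes. With SP, Krt6a became number 31 of all genes by FPKM, from number 296 in the colony control. The summed stress keratins reached 2846 FPKM, from 321, and 21.1% of the summed basal keratins, from 5.37%.

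Basal keratins rose by less but from much higher levels. Krt14 had 3298 FPKM in the colony control and 6919.9 in the colony SP library, 2.10 times as much (1.07 on the log2 scale), and was the most abundant gene of the latter. Krt5 had 1888 and 4579 FPKM, 2.42 times as much (1.28), and was number 3 of all genes with SP. Krt17 had 725 and 1882 FPKM, 2.60 times as much (1.38). The pair of Krt5 and Krt14 thus rose together, with a ratio of Krt14 to Krt5 of 1.75 without and 1.51 with SP. Krt15 had 68.2 and 95.5 FPKM, 1.4 times as much (0.48), the smallest difference of the 4. The median of the basal keratins was 1.17, and it stayed between 1.15 and 1.25 under the other scalings and pseudocounts.

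Luminal keratins had no such difference. Krt8 had 698 and 683 FPKM (-0.03). Krt18 had 503 and 504 FPKM (0.00). Krt19 had 211 and 209 FPKM (-0.02). No luminal keratin passed the threshold under any scaling or pseudocount tried, and the sign of these small values changed with the scaling, as for Krt18, which was at -0.18 after quantile normalization and at 0.08 after scaling by the median ratio. Whether the groups of keratins differ from each other in their response was not tested. Within a library, where scaling plays no part, the log2 ratio of summed luminal to summed basal keratins was -2.08 without and -3.27 with SP. It fell by 1.19 between the colony libraries, and by 1.31 when Krt14 was left out, a choice made after seeing the data. The log2 ratio of summed stress to summed basal keratins was -4.22 without and -2.24 with SP. Other luminal markers differed in both directions: of 25, all above the filter, 3 were higher and 13 were lower with SP, where 11.7% and 19.8% of all genes were, and their median was -0.30 beside -0.07. The largest differences of this list were those of Ltf, lactoferrin, at 3.13 and 19.8 FPKM, Cited1, a transcriptional co-activator of luminal cells, at 37.3 and 13.0 FPKM, and Csn3 at 6.41 and 19.0 FPKM. Of the 16 basal and myoepithelial markers, 7 were higher and 3 were lower, with a median of 0.26. Here too the genes went both ways: Acta2 had 402 and 722 FPKM and Trp63 had 46.5 and 80.9 FPKM, while Lgr5, a receptor of R-spondins, had 48.7 and 17.7 FPKM and Igfbp3, a binding protein of insulin-like growth factors, had 741 and 323 FPKM.

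The control colonies were compared with control sorted cells to see what culture itself changes. Of the 10 keratins, 6 were counted as higher, where 55.7% of 12244 genes were, and 3 as lower, where 26.6% were. Past a difference of 1, there were 2 higher, where 30.7% of genes were, and 2 lower, where 13.2% were. Past 0.3 these shares are near those of all genes. Past 1, the share of higher keratins is under and that of lower keratins above that of all genes, each on 2 genes. The counts alone therefore say nothing particular about keratins. The median gene was 0.45 higher in the colonies, and scaling by the median ratio, which moves that median to 0.00, left 4 keratins higher and 4 lower, beside 39.7% and 39.4% of genes. Of the genes past 0.3, 67.7% were higher as deposited, against 50.1% with that scaling and 55.1% after quantile normalization. Differences are therefore also given relative to the median gene.

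The stress keratins moved apart in culture. Krt6a had 29.2 FPKM in sorted cells and 260.25 in colonies, a difference of 3.11, or 2.66 above the median gene. Krt6b had 0.12 and 16.5 FPKM, a rise from close to no fragments whose size depends on the pseudocount, from 2.07 with a pseudocount of 5 to 6.24 with 0.1. Krt16 had 67.2 and 44.1 FPKM, a difference of -0.60, or -1.05 relative to the median gene. The type II stress keratins were thus higher and the type I stress keratin lower in the same colonies, and the ratio of Krt16 to Krt6a was 2.30 in sorted control cells and 0.169 in control colonies.

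Basal keratins also moved apart. Krt5 had 1002 FPKM in sorted cells and 1888 in colonies, a difference of 0.91, or 0.46 above the median gene. Krt17 had 2266 and 725 FPKM (-1.64, or -2.09 relative to the median gene). Krt15 had 175 and 68.2 FPKM (-1.34, or -1.80 relative to the median gene). The type II chain was higher and these type I chains were lower. Krt14 had 3595 and 3298 FPKM, a difference of -0.12 as deposited, within the threshold, and of -0.63 after scaling by the median ratio. The luminal keratins were all higher as deposited, Krt19 with 112 and 211 FPKM (0.91), Krt18 with 375 and 503 (0.42) and Krt8 with 559.9 and 698 (0.32), but after scaling by the median ratio Krt18 and Krt8 were at -0.08 and -0.19 while Krt19 was at 0.41. Of the 25 luminal markers, 16 were higher and 3 lower, where 55.7% and 26.6% of all genes were, so the count of higher markers is near the share over all genes and that of lower markers is under it, and their median was 1.397 beside 0.45. Ly6d, a surface protein of luminal and other epithelial cells, had 33.6 FPKM in sorted cells and 976 in colonies. Of the 16 basal and myoepithelial markers, 4 were higher and 9 were lower in the colonies. Myh11, smooth muscle myosin, had 467 FPKM in sorted cells and 11.2 in colonies, while Igfbp3 had 551 and 741 FPKM.

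The balance of type I and type II chains, over all 43 keratin genes listed (21 of type I, 21 of type II and 1 outside both), followed from these values. Type I keratins summed to 6652 FPKM and type II to 1651 FPKM in the sorted control, a ratio of 4.03. It was 3.27 in the sorted 6-OHDA library. In the colony control the sums were 4867 and 2979 FPKM, a ratio of 1.63, and in the colony SP library 10066 and 7819 FPKM, a ratio of 1.29. Transcripts of both types were thus nearer to each other in colonies than in sorted cells. The 10 keratins held 98.5%, 98.3%, 98.3% and 99.1% of the keratin FPKM in the sorted control, sorted 6-OHDA, colony control and colony SP libraries, and 1.61%, 1.22%, 1.34% and 3.01% of all FPKM. The order of levels was the same in both sorted libraries, from Krt14, Krt17, Krt5, Krt8, Krt18, Krt15, Krt19, Krt16 and Krt6a down to Krt6b. In the colony SP library it ran Krt14, Krt5, Krt6a, Krt17, Krt8, Krt18, Krt16, Krt6b, Krt19 and Krt15. Krt6a was at place 9 in both sorted libraries, at place 6 in the colony control and at place 3 in the colony SP library. With 1 library per group, neighbours in these orders cannot be told apart by their spread.

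Of the 33 other keratin genes, 22 were under 1 FPKM in every library and 6 reached 5 FPKM in at least 1. On a list of 16 suprabasal, mucosal and other epithelial keratins, 15 were found. Of 7 past the filter in the SP comparison 3 were higher and 1 was lower, where 11.7% and 19.8% of all genes were. With 6-OHDA 2 of 7 were higher and 2 lower, where 15.8% and 8.35% of all genes were, and in culture 3 of 6 were higher and 3 lower, where 55.7% and 26.6% were. With so few genes these counts are descriptions. Krt7, a type II keratin of simple epithelia, had 26.8, 30.9, 70.5 and 65.6 FPKM in the sorted control, sorted 6-OHDA, colony control and colony SP libraries, a pattern of higher values in colonies like that of Krt19. Krt79, a keratin of skin glands and hair canals, had 3.00, 3.35, 33.1 and 61.7 FPKM. Krt10, which replaces basal keratins in the upper epidermis, had 1.02, 3.68, 3.70 and 7.95 FPKM. Both were higher in colonies than in sorted control cells and higher again with SP. Krt42, next to Krt17 on the chromosome, had 44.3, 25.9, 1.41 and 4.94 FPKM, with its fall in culture and rise with SP in the directions of Krt17. Krt80 had 21.6, 16.8, 7.50 and 7.61 FPKM. Krt23 had 15.6, 17.1, 12.3 and 7.73 FPKM.

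Genes of the proteins that anchor keratin filaments at cell junctions were taken from a list of 18 plakins and desmosome genes. With SP, 17 passed the filter, 14 were higher and 0 were lower, where 11.7% and 19.8% of all genes were, and the median was 0.49 beside -0.07 over all genes. Dsp encodes desmoplakin, which ties keratin to the desmosome, and had 152, 129.8, 163 and 299.8 FPKM in the sorted control, sorted 6-OHDA, colony control and colony SP libraries. Dsg3, a desmosomal cadherin of basal layers, had 3.71, 5.72, 68.9 and 198 FPKM. Perp, a membrane protein of desmosomes, had 173, 247, 548 and 1028 FPKM. In each of these the colony SP library was highest. Dsc3 had 40.7 and 82.1 FPKM and Dsg1a had 1.33 and 9.37 FPKM in the colony libraries. In the 6-OHDA comparison 4 of 16 genes of the list were higher and 1 was lower, where 15.8% and 8.35% of all genes were. In the culture comparison 9 of 16 were higher and 5 lower, with a median of 0.43, which is near the shares of all genes (55.7% and 26.6%) and their median (0.45).

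The list of 25 cornified envelope genes, chosen with earlier results of these data known, had 22 genes in the data. They encode the cross-linked shell of dying keratinocytes and proteins made with it. With SP 15 passed the filter, and 15 were higher and 0 lower, where 11.7% and 19.8% of all genes were, with a median over these 15 of 1.55 beside -0.07 over all genes. A gene listed near 0 in the control could pass only by being higher, so this count and this median are descriptions. Krtdap, a keratinocyte differentiation protein, had 29.5 FPKM in the colony control and 528 in the colony SP library. Dmkn, dermokine, had 112 and 458 FPKM. Sprr1b, a small proline-rich envelope precursor, had 2.83 and 24.6 FPKM. These genes rose beside the stress keratins. Of the 22 genes, 11 were under 1 FPKM in the colony control and 7 in the colony SP library. Lor, Flg and Ivl were under 1 FPKM in both. Without and with SP, Lor had 0.54 and 0.18 FPKM, Flg 0.06 and 0.19, and Ivl 0.20 and 0.46. S100a9, which encodes a calcium-binding protein of stressed epithelium and myeloid cells, was listed at 0 in the colony control and at 6.40 FPKM with SP. With 6-OHDA 3 of 6 were higher and 0 lower, where 15.8% and 8.35% of all genes were. In culture 8 of 10 were higher and 1 lower, where 55.7% and 26.6% of all genes were. This count too is a description. Genes listed near 0 in the sorted control, such as S100a8 (0 there and 30.9 FPKM in the colony control), could pass only by being higher.

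Transcription factors of keratin programs, a list of 23, moved in both directions with SP: 8 were higher and 6 lower, where 11.7% and 19.8% of all genes were, with a median of 0.03. Fosl1, an AP-1 subunit, had 240.3 FPKM in the sorted control and 195.5 in the sorted 6-OHDA library, and 1.27 and 5.14 FPKM in the colony control and colony SP libraries. Sox15, a factor of the Sox family, had 1.21 FPKM without and 4.05 with SP. Klf4, a factor of epidermal differentiation, had 188, 144, 20.3 and 36.6 FPKM in the 4 libraries. Fosl1 and Klf4 were thus much lower in colonies than in sorted cells, and within the colonies both were higher with SP. Their part in the keratin levels was not tested. Junb, another AP-1 subunit, was the most abundant of the list in each library and had 801, 619, 359 and 222 FPKM. In the 6-OHDA comparison 3 of 19 were higher and 4 lower, where 15.8% and 8.35% of all genes were. In the culture comparison 10 of 22 were higher and 8 lower, where 55.7% and 26.6% of all genes were.

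Genes with the pattern most like that of Krt14, Krt6a or Krt8, a single gene of each group, were found by the distance of log2(FPKM + 1), centred on its mean over the 4 libraries, among 9101 genes with a mean of at least 5 FPKM. Nearest to Krt14 were Dsp (distance 0.21), Gapdh (0.26), Tns4 (0.26), Slc7a8 (0.32) and Sqle (0.33). Among those nearest to Krt6a were Dmkn (0.87), Klk8 (1.03), Krt6b (1.13) and Defb14 (1.15). Nearest to Krt8 were Nenf (0.02), Med14, Stk24, Scap and Cdk7 (each 0.03). Flat patterns such as that of Krt8 have close neighbours and steep ones such as that of Krt6a have few. Among the 10 keratins, the nearest pair was Krt8 with Krt18 (0.35), followed by Krt18 with Krt19 (0.40), while Krt6a and Krt16 were 3.46 apart. Krt14 was nearer to the luminal keratins Krt18 (0.76), Krt19 (0.87) and Krt8 (0.89) than to any other basal keratin, of which Krt5 (1.05) was the nearest, so its neighbours do not stand for the basal group. With 4 libraries these distances are descriptions only.

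In the genome, the members lie in a pair of keratin gene clusters. The coordinates are those of RefSeq for GRCm38, the assembly also named mm10. On chromosome 11, within chr11:100131759-100261029, lie 5 of the 6 type I genes in the order Krt15, Krt19, Krt14, Krt16 and Krt17. On chromosome 15, within chr15:101676023-102032026, lie the type II genes Krt6b, Krt6a, Krt5 and Krt8, followed by the type I gene Krt18. Some neighbouring genes had different values with SP, while Krt6b and Krt6a, 9634 bases apart, both rose, by 3.62 and 3.07. Krt19 lies 4860 bases from Krt15 and was nearly equal in the colony libraries, while Krt15 was higher with SP. Krt6a, with a difference of 3.07, lies 12763 bases from Krt5, with a difference of 1.28. Krt8 and Krt18, the pair nearest in pattern, lie 23873 bases apart with no other keratin gene between them.

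**Figure D3:**
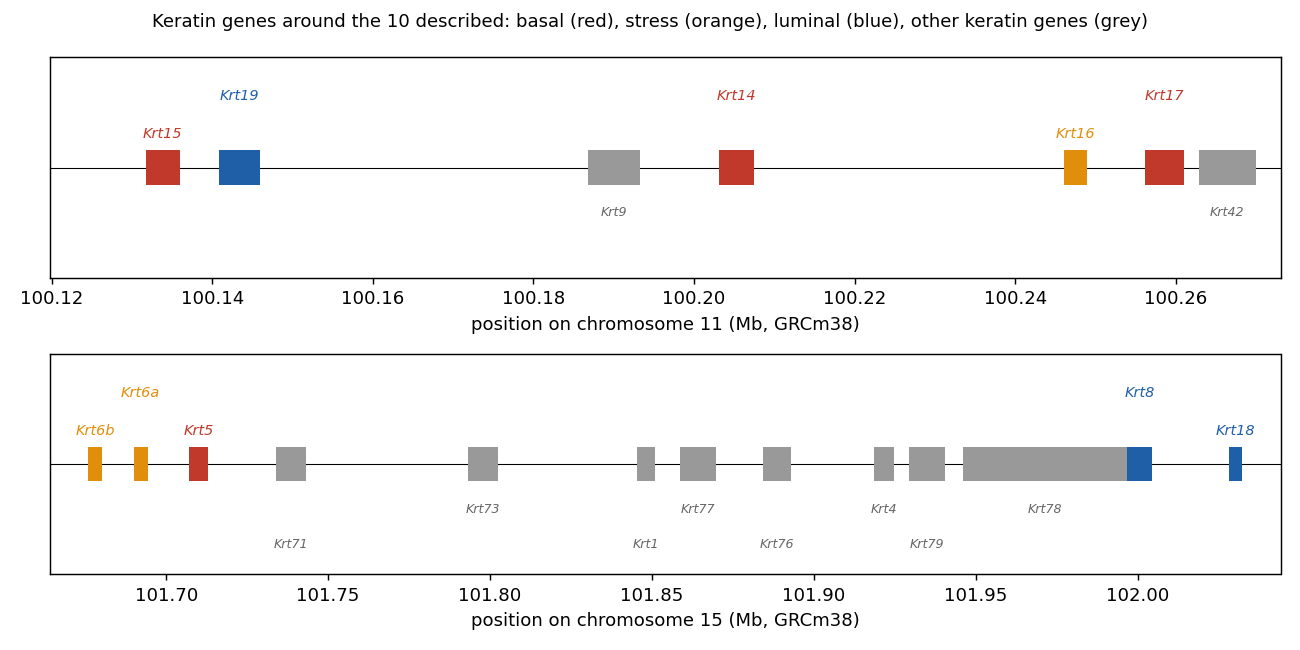
Map of the keratin genes around the 10 members on chromosomes 11 and 15 (position in Mb, GRCm38), each box 1 gene to scale. Genes of different roles lie side by side, such as Krt15 and Krt19, whose boxes are 4860 bases apart.

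Krt6a and Krt6b are near copies, which bears on how their values can be read. Their coding sequences, from GENCODE vM21 transcripts, were aligned over 1659 bases, of which 1622 (97.8%) were identical. Of the stretches of 100 bases in the Krt6b transcript, 30.1% occur unchanged in Krt6a. Reads from such stretches cannot be assigned to either gene by sequence, and the program RSEM named in the submitters' processing notes divides them by estimate, so the split between Krt6a and Krt6b is uncertain. Summed over both genes, the levels were 29.3 FPKM in the sorted control, 30.1 in the sorted 6-OHDA, 277 in the colony control and 2412 in the colony SP library, 8.72 times as much with SP. The sum gave a log2 difference of 3.12 with SP, 3.19 in culture and 0.04 with 6-OHDA, so the differences with SP and in culture are present in the sum, where the split plays no part. Shown are the 120 coding bases with the most mismatches, from base 751 to base 870 of each coding sequence, with the 17 mismatches in capitals.
Krt6a: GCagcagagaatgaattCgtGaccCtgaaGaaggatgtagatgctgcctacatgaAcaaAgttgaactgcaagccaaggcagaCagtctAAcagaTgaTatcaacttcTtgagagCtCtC
Krt6b: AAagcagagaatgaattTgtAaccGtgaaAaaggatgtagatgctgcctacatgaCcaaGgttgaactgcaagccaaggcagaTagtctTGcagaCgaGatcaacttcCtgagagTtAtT

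At the other end, 120 coding bases were the same in both genes, from base 34 to base 153, with 0 mismatches, and a read from them fits either gene.
Krt6a and Krt6b: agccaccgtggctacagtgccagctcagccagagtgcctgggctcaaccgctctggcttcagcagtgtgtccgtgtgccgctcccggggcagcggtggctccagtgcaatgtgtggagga

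Other members share less. Krt16 and Krt14 were identical at 85.5% of aligned coding bases, and of the Krt16 stretches of 100 bases 24.3% occur in another gene, most of them (21.2%) in the pseudogene Gm11597. Krt14 shared 2.88% of its stretches, with Krt16. Krt14 was 15.9 times as abundant as Krt16 with SP, 74.8 times in the colony control and 53.5 times in the sorted control. The value of Krt16 is therefore uncertain to the extent that reads from shared stretches were divided with Gm11597 or Krt14. Krt8 shared 16.9% with its pseudogene Krt8-ps. Krt5 shared 2.38% of its stretches with Krt6a. Of the Krt6a stretches, 33.96% occur in another gene, most of them (29.51%) in Krt6b. Krt6a, and its sum with Krt6b, are therefore also uncertain to the extent that reads were divided with genes such as Krt5. Krt15, Krt17, Krt18 and Krt19 shared 0 stretches with any other gene. The stretch of Krt14 and Krt16 with the most mismatches is shown, from base 917 to base 1036 of the Krt14 coding sequence and from base 893 to base 1012 of that of Krt16, with the 38 mismatches in capitals.
Krt14: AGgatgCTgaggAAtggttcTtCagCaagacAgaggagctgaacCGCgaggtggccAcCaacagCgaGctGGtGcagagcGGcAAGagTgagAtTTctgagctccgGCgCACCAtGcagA
Krt16: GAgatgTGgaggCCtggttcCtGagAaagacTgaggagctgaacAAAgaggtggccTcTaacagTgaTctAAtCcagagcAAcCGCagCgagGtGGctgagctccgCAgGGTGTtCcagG

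RefSeq promoter sequences (GRCm38.p6) that begin at the 5′ end of the gene were given for Krt5, which rose with SP, and for Krt8 and Krt18, which did not pass the threshold there and were nearest to each other in pattern. The entry for Krt14 starts inside the gene and is not shown, and Krt15, Krt17, Krt19, Krt6a, Krt6b and Krt16 had no entry. The 250 bases before the start were searched on both strands for TATAA (TATA box), ATAAA (a related form), TGANTCA (AP-1), TGACG (the core of the cAMP response element), GGGCGG (GC box) and GCCNNNGGC (AP-2). TATAA and ATAAA can overlap. Among 32851 promoters, the same windows held these letters in 22.8%, 37.3%, 6.75%, 17.8%, 32.7% and 13.7%. Matches are in capitals. Krt5, on the minus strand at chr15:101712906-101713155, held TGACG at 239 bases and ATAAA at 29 bases before the start. Krt8, on the minus strand at chr15:102004343-102004592, held none of the 6. Krt18, on the plus strand at chr15:102027966-102028215, held GCCNNNGGC at 83 bases and TATAA at 19 bases before the start. A match is a description of the letters and not of binding.
Krt5: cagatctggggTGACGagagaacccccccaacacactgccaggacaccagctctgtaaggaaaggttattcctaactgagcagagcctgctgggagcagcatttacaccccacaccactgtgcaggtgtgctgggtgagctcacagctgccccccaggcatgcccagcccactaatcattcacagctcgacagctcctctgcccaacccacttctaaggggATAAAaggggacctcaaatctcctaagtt
Krt8: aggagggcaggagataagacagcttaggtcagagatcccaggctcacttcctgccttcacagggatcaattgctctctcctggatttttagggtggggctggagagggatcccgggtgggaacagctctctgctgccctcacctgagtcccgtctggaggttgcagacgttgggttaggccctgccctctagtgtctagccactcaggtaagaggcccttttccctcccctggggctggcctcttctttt
Krt18: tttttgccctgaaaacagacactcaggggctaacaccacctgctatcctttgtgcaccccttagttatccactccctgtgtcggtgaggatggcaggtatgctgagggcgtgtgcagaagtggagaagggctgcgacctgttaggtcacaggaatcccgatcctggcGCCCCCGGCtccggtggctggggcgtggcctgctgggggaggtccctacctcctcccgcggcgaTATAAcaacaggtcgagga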

How the data were processed

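RNA-seq libraries of 4 groups were used, 1 per group, grouped by title, treatment and study design. The authors deposited FPKM values with 2 decimals for 17630 genes, which the submitters' processing notes link to Bowtie2, RSEM 1.3.1 and mm10, and the submitters also name DESeq2 1.4.5. Read counts were not analysed here. Gene numbers were matched to RefSeq symbols (17512 matched). Differences of log2(FPKM + 1) were taken over genes with a mean of at least 1 FPKM, with a threshold of 0.3 and, for counts, of 1. Medians of the keratin groups include members under the filter, and medians of gene and marker lists do not. Depth was estimated at assumed fragment lengths of 150 to 300 bases, at 14.8 to 18.9 fragments for 1 FPKM on 1 kilobase, which is rough. The calculation of the calls was checked on simulated data with known differences. The members and lists were chosen with earlier results of these data known. Named genes are all members, the 3 list genes with the largest difference and the 3 most abundant, other keratins of at least 5 FPKM in a library, and the 5 nearest in pattern. Flg, Ivl, Krt25, Krt31, Lmnb2 and Ptprc fall outside this rule and were named after their values were seen. Some genes covered by the rule are left out. Alternatives were other pseudocounts, filters, scalings and a threshold of 1. Python 3.11.15, numpy 2.4.6, pandas 2.3.3, matplotlib 3.10.9 and biopython 1.88 were used.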

Additional observations from a re-analysis of the deposited data

How the results depend on the processing

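No replicate could be left out, with 1 library per group. A median was taken as moved when it crossed 0.3 or moved by over 0.3, and a count when it changed by over 1.5 times. Of 144 alternative values of counts, medians and ratios, 132 kept their place by this rule, among them all medians of the 6-OHDA and SP comparisons. With a threshold of 1 on the log2 scale, 0 keratins were lower with 6-OHDA and 2 were higher in control colonies than in control sorted cells. The rest concern the latter comparison. After scaling by the median ratio, the median difference was -1.24 for basal keratins, 2.61 for stress keratins and -0.0838 for luminal keratins, the last reversed, as were Krt18 (-0.0838) and Krt8 (-0.19). This scaling takes out the difference of the median gene, 0.45. Rescaled to the same sum, the luminal median was 0.24, the same without salivary genes (0.24), and 0.23 without keratin genes. From summed FPKM, the difference was -0.23 for basal and 1.73 for stress keratins, and with a pseudocount of 5 the stress median was 2.07. Without Krt6a, an alternative chosen after seeing the data, the change of the log2 ratio of summed stress to summed basal keratins was 0.0832, against 1.97 with it, since Krt16 and Krt6a moved apart. Of 210 values of single genes, 179 kept their place, 29 moved and 2 reversed. Beyond these constructions, the causes of the shifts were not tested. Values of Krt6b in sorted cells rest on few fragments.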

Other observations

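Other intermediate filament genes were also measured, from a list of 12. In control colonies against control sorted cells, 8 passed the filter, 0 were higher and 7 were lower, where 55.7% and 26.6% of all genes were, with a median of -1.20 beside 0.45 over all genes. Markers of other cell types were lower in the same comparison: 8 of 10 fibroblast markers past the filter (1 was higher), with a median of -1.62, and 10 of 10 endothelial markers, with a median of -4.26. Their part in the values given next was not tested. Vim, vimentin, the filament of mesenchymal cells that basal mammary cells also express, had 396 FPKM in the sorted control, 537 in the sorted 6-OHDA, 233 in the colony control and 243 in the colony SP library. Lmna, which encodes the nuclear lamins A and C, had 1019.9, 889, 252 and 328 FPKM in that order. Synm, synemin, a partner of desmin in muscle, had 13.5, 14.3, 1.01 and 1.17 FPKM. Des, desmin, had 7.20, 7.94, 0.08 and 0.08 FPKM. Each of these 4 genes was lower in the colony control than in the sorted control. Lmnb2, the gene past the filter that was not counted as lower, had 7.94 FPKM in the sorted control and 9.85 in the colony control. With SP, 2 of 7 were higher and 0 lower, where 11.7% and 19.8% of all genes were. With 6-OHDA 2 of 8 were higher and 0 lower, where 15.8% and 8.35% of all genes were.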
